A study of Mus musculus with 18 samples.

Results

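The comparison of Nmnat2 overexpression with an empty vector rested on 6 of the 18 libraries of a study of mouse retinal explants, 3 in each group, taken by their labels from the table of the overexpression experiment. Retinas came from ICR mice, which are outbred, and received plasmids by electroporation at postnatal day 0.5 before 3 days in culture as explants. The Nmnat2 overexpression group received a plasmid that carries Nmnat2, the empty vector group received the plasmid without it, and every retina also received a plasmid for EGFP, by which the cells were then sorted. The labels name neither the promoter of the plasmids nor the number of retinas or animals behind a library, so each p-value sets a difference against the spread between libraries only, and part of that spread may be technical. The title of 1 library in the Nmnat2 group names Nmnat3, whereas its description and characteristics name Nmnat2. Another group in the same table, Nmnat1 overexpression, had 3 libraries and was made in the same way.

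The NMNAT enzymes make NAD from nicotinamide mononucleotide and ATP. NMNAT1 is the nuclear enzyme, NMNAT2 sits on the Golgi apparatus and on vesicles that travel along axons and has a short life as a protein, and NMNAT3 is found in mitochondria. Loss of NMNAT2 from an injured axon lets SARM1, an NAD-cleaving enzyme, start the axon's destruction, and inherited loss of NMNAT1 function causes photoreceptor degeneration. In the newborn mouse retina progenitors still divide, most rods are yet to be born or to mature, and most amacrine, horizontal, cone and ganglion cells already exist.

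Levels are given in parts per 1000000 (ppm) of the summed signal of a library. Log2 fold changes are on the log2(ppm + 1) scale with their standard error (SE), which understates the change of low genes. A gene was called when its p from limma, a linear model fitted over all 20725 genes kept, was under 0.05 after Benjamini-Hochberg adjustment. Relative depth ran from 0.826 to 1.147 of the median library, and 1 ppm stood for about 11.45 to 16.92 reads per 1 kb of effective gene length. The 9 libraries had 25752 to 30718 genes above 0. Library 1 of the Nmnat2 group stood apart: noncoding genes and pseudogenes took 10.45% of its signal and 5.94% to 7.36% in the other 8 libraries. It lay at -91.4 on the first principal component, which held 35.5% of the variance. That component followed the library number in all groups. Library 1 lay at -24.5 for the empty vector and -33.9 for Nmnat1, and the libraries numbered 2 or 3 lay between 4.1 and 50.0. Within each group libraries 2 and 3 were closer to each other than to library 1. Over 6570 genes with at least 20 ppm in all 9 libraries, the SD of their log2 ratio was 0.149 for the empty vector and 0.181 for Nmnat2, against 0.258 to 0.265 and 0.491 to 0.492 for the pairs with library 1. Libraries 2 and 3 also shared the level of single genes that varied otherwise. Cwc22, a splicing factor, measured 151, 150 and 150 ppm in the empty vector libraries, 176, 118 and 121 ppm in the Nmnat2 libraries and 56.3, 318 and 313 ppm in the Nmnat1 libraries. The 4 Y-linked genes measured summed to 75.3, 243 and 242 ppm with the empty vector, 128, 113 and 106 ppm with Nmnat2 and 65, 253 and 260 ppm with Nmnat1. Libraries 2 and 3 still differed by more than sampling noise, with a chi-square of 6.89 to 10.07 per degree of freedom in genes with 1 transcript. Separate preparations from 1 pool could also differ by more than sampling noise, so this value cannot tell whether they share animals or cells. The labels do not say so either, and list them as separate samples, which is how they were counted. A fit without the libraries numbered 1 is given beside the results, and its spread is that between these closer libraries.

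Nmnat2 mRNA measured 2.71, 1.14 and 1.80 ppm in the empty vector libraries and 20911, 22818 and 21014 ppm in the Nmnat2 libraries. Nmnat2 lies on chromosome 1 (chr1:152954993-153119261, plus strand, GRCm38). It rose from 1.89 ± 0.788 to 21581 ± 1072 ppm (SD, n = 3 in each group), 11439-fold by the ratio of means, and the plasmid transcript took 2.091% to 2.282% of all signal of these libraries. The log2 fold change was 12.90 ± 0.24 (SE), with a limma adjusted p of 8.32e-10. The exact two-sided permutation test gave p = 0.1, the smallest that 3 against 3 samples allow.

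Nmnat1 measured 22.6, 18.7 and 21.3 ppm with the empty vector and 39.4, 42.4 and 45.6 ppm with the Nmnat2 plasmid. The groups did not overlap, and the ratio of means was 2.04. This difference was not called over all genes (0.99 ± 0.21, limma adjusted p = 0.0733, exact permutation p = 0.1) and was called without the libraries numbered 1 (1.10, limma adjusted p = 2.26e-04). The Nmnat1 plasmid reached 19325 ppm on average in its own libraries, and there Nmnat2 measured 6.50, 3.12 and 6.08 ppm. The longest exact run shared by annotated Nmnat1 and Nmnat2 transcripts, on either strand, was 31 bases. Whether the higher Nmnat1 signal came from the endogenous gene was not tested. Nmnat3 was low in every library, at 2.17, 1.71 and 2.11 ppm against 1.80, 0.767 and 0.42 ppm, with groups that overlapped (-0.64 ± 0.39, limma adjusted p = 0.649).

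**Figure D1:**
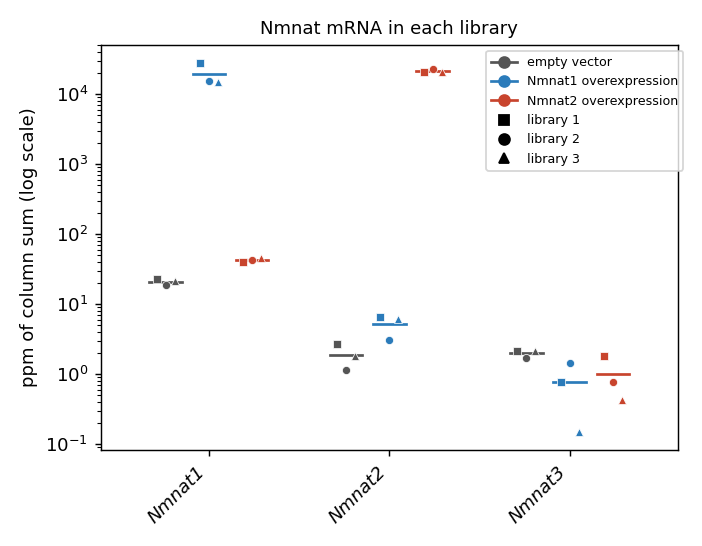
Level of the 3 Nmnat genes in ppm of column sum (log scale) in each of the 9 libraries; colour marks the group, the symbol marks the library number and bars are group means. Nmnat2 lies at 20911 to 22818 ppm in the Nmnat2 libraries and at 1.14 to 2.71 ppm in the empty vector libraries, and Nmnat1 is about 2.04 times higher with the Nmnat2 plasmid.

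Beside Nmnat2 itself, the calls included 7 of 32 rod genes and 6 of 18 cone genes, all lower, and 5 of 24 amacrine and horizontal genes, all higher. Of the 20725 genes, 42 (0.203%) were called higher and 72 (0.347%) lower, and 109 of these 114 are protein-coding. The libraries of the 2 groups did not overlap in any of the 114. Without overlap, but with no other criterion, 8.6% of all genes were higher and 7.73% lower, and 2132 genes had an unadjusted p under 0.05. Scaling by the column sum without Nmnat1 and Nmnat2, which removes the share of the plasmid transcripts, gave 39 called higher and 44 lower, so that the share of higher calls went from 36.8% to 47.0%. The calls depended on which libraries entered the fit. Leaving out an empty vector library left 10 calls (library 1), 5 (library 2) or 3 (library 3), leaving out Nmnat2 library 2 or 3 left 4 each, and leaving out Nmnat2 library 1 gave 321, with 109 of the 114 among them. Leaving out an Nmnat1 library, which enters only through the shared spread, gave 224 (library 1, all 114 among them), 37 (library 2) and 53 (library 3). Without all libraries numbered 1, 814 of 17502 genes (4.65%) were called higher and 617 (3.53%) lower, and 112 of the 114 genes were again called with the same sign.

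**Figure D2:**
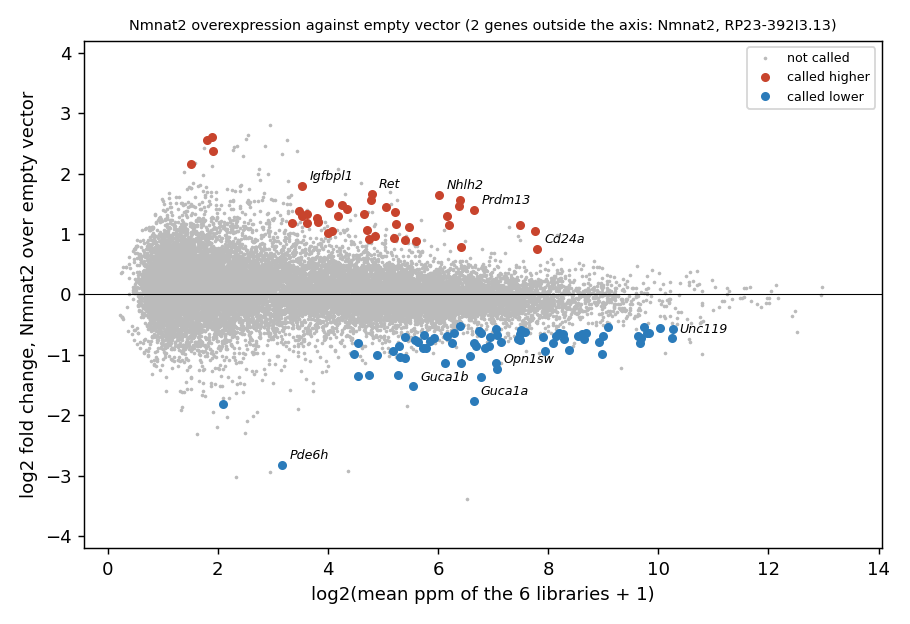
Log2 fold change of Nmnat2 overexpression over empty vector against log2(mean ppm of the 6 libraries + 1); each point is 1 of the 20725 genes, with the 42 called higher in red and the 72 called lower in blue. The called genes lower with Nmnat2 reach down to Pde6h at -2.82, and Nmnat2 itself lies outside the axis.

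The largest fall among called genes was in a cone gene. Pde6h, the inhibitory subunit of the cone phosphodiesterase, measured 7.4, 17.6 and 19.1 ppm with the empty vector and 2.57, 0.341 and 0.857 ppm with Nmnat2 (-2.82 ± 0.46, limma adjusted p = 0.0323). The lowest empty vector library was library 1 and the highest Nmnat2 library was also library 1. Gnat2, the cone transducin alpha subunit, measured 52.7, 56.8 and 52.6 ppm against 19.7, 27.9 and 16.7 ppm (-1.33 ± 0.19, limma adjusted p = 0.0198). Opn1sw, the short-wavelength cone opsin, measured 235, 164 and 162 ppm against 61.7, 83.9 and 90.6 ppm (-1.23 ± 0.20, limma adjusted p = 0.0323). Its ratio of means was 2.37 in favour of the empty vector, with a clear gap between the groups. Kcne2, a potassium channel subunit counted in the cone list, fell by 1.35 on the log2 scale. The remaining called cone genes were Ccdc136 (-0.74) and Gnb3 (-0.69), the cone transducin beta subunit. Of 18 cone genes tested 6 were called lower and none higher. The list's median was -0.67 where the median of all genes was 0.06, and it lay between -0.80 and -0.46 in every alternative computed. The count was 0 when any 1 empty vector library or Nmnat2 library 3 was left out, and 1 without Nmnat2 library 2. With all 9 libraries but no mean-variance trend in the limma fit, it was also 0. Among the cone genes not called, Rxrg had -0.86 (limma adjusted p = 0.146), Thrb -0.66 (0.506) and Arr3, the cone arrestin, -0.90 (0.34). Arr3 was low, at means of 4.82 ppm with the empty vector and 2.09 ppm with Nmnat2.

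The rod genes called lower included 3 that act in calcium feedback, Guca1a, Guca1b and Rcvrn, a grouping made after their values were seen. Guca1a and Guca1b encode the activating proteins that couple low calcium to guanylate cyclase, lie beside each other on chromosome 17 (chr17:47394558-47400584, minus strand, and chr17:47385393-47392967, plus strand) and act in rods and cones. Guca1a measured 115, 170 and 175 ppm with the empty vector and 33.8, 43.5 and 57.5 ppm with Nmnat2, 3.42 times lower by the ratio of means (-1.76 ± 0.20, limma adjusted p = 0.0145). Guca1b measured 60.7, 74.1 and 70.1 ppm against 17.1, 30.5 and 23.3 ppm (-1.52 ± 0.24, limma adjusted p = 0.0266). In both genes every Nmnat2 library was below every empty vector library. Rcvrn encodes recoverin, a calcium sensor of photoreceptors, and measured 133, 167 and 169 ppm against 71.4, 52.4 and 56.8 ppm (-1.37 ± 0.21, limma adjusted p = 0.0258). Aipl1, a chaperone needed to build the rod phosphodiesterase, measured 85.2, 99.3 and 99.4 ppm against 40.3, 42.3 and 45.5 ppm (-1.13 ± 0.13, limma adjusted p = 0.0145). Unc119, which carries lipid-modified transducin, went from 1519 ± 77.8 to 920 ± 12.4 ppm (SD, n = 3 in each group) and was the most abundant called gene to fall (-0.72 ± 0.11). Tulp1, for protein transport to the outer segment, fell by 0.94 and Rom1, a disc-rim protein, by 0.81 on the log2 scale.

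Of 32 rod genes tested 7 were called lower and none higher, 31 had a fold change below 0, and the list's median was -0.72. That median lay between -0.90 and -0.67 in every alternative, and the count between 0 and 25. The count was 25 without the libraries numbered 1, where the median was -0.89, and 11 without Nmnat2 library 1 alone. It was 2 without empty vector library 1, 1 without Nmnat2 library 3 and 14 without Nmnat1 library 1. It was 0 without empty vector library 2 or 3, or Nmnat2 library 2. With all 9 libraries but no mean-variance trend in the limma fit, the count was also 0. The summed level of the list was 13360, 13028 and 12913 ppm with the empty vector and 8693, 7202 and 7053 ppm with Nmnat2. Nmnat2 library 1 was the highest of its group and still below every empty vector library. Some other rod genes had changes within the range of the called ones but were not called. Cnga1, the rod cyclic nucleotide-gated channel, measured 18.3, 13.9 and 14.1 ppm against 14.4, 2.64 and 3.23 ppm and was not called (-1.40 ± 0.57, limma adjusted p = 0.419; -1.94 without the libraries numbered 1). Gucy2e, a guanylate cyclase that Guca1a and Guca1b act on, had -0.61 ± 0.28 (limma adjusted p = 0.499), a smaller change than any called rod gene. Sag, rod arrestin, measured 2464, 2291 and 2297 ppm against 1533, 1059 and 1033 ppm (-0.98 ± 0.22, limma adjusted p = 0.0898). Pde6g, the inhibitory subunit of the rod phosphodiesterase, measured 942, 897 and 844 ppm against 475, 360 and 334 ppm (-1.21 ± 0.28, limma adjusted p = 0.106). In bulk libraries fewer photoreceptors and less photoreceptor RNA per cell cannot be told apart.

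**Figure D3:**
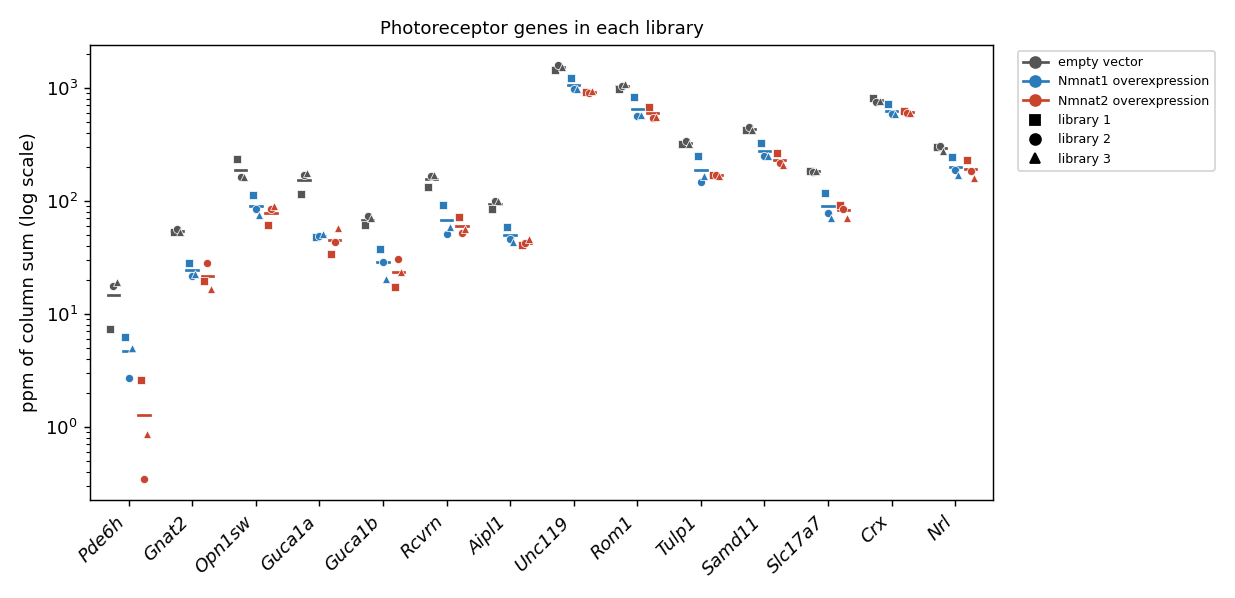
Level in ppm of column sum (log scale) of 14 photoreceptor genes in each of the 9 libraries, with colour for the group, symbol for the library number and bars for group means. From Pde6h to Slc17a7 the 3 Nmnat2 libraries lie below the 3 empty vector libraries.

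Regulators of photoreceptor fate held 1 fall and 1 rise, that of Prdm13, which is described with the amacrine genes. Samd11, a repressor in developing rods, measured 428, 452 and 420 ppm with the empty vector and 263, 217 and 209 ppm with Nmnat2 (-0.92 ± 0.13, limma adjusted p = 0.0195), and was the only one of 16 listed regulators called lower. Nr2e3, the rod nuclear receptor, measured 1542, 1463 and 1417 ppm against 858, 690 and 716 ppm and missed the threshold (-0.97 ± 0.21, limma adjusted p = 0.0824). Nrl, which sets rod against cone fate, had -0.63 ± 0.16 (limma adjusted p = 0.146). Crx, the general photoreceptor activator, had 809, 758 and 762 ppm against 621, 605 and 596 ppm (-0.35 ± 0.10, limma adjusted p = 0.199). Otx2, which acts upstream of Crx, had -0.14 ± 0.10 (limma adjusted p = 0.706). Without the libraries numbered 1, 6 of the regulators were called lower, Nr2e3, Nrl and Crx among them, and 2 higher, with Prdm13 at 1.74. Slc17a7, the vesicular glutamate transporter of photoreceptor terminals, measured 183, 179 and 184 ppm against 92.0, 84.8 and 70.8 ppm (-1.14 ± 0.17, limma adjusted p = 0.0258). Other called genes that fell were Ppm1j, a protein phosphatase (-1.82), Rtbdn, the retbindin of the interphotoreceptor space (-1.13), Tub, relative of Tulp1 (-1.04), Nrtn, the ligand neurturin (-1.02), and Impdh1, for guanine nucleotide synthesis (-0.66).

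The promoters of genes that moved are shown where RefSeq (GRCm38.p6) gives a window that ends at the annotated gene start, for 2 photoreceptor genes that fell and 1 amacrine regulator that rose. Each is the 250 bases before the start, 5′ to 3′ on the gene's strand, and capitals mark TAATCC, the core bound by CRX, or its reverse complement GGATTA. Aipl1 lies at chr11:72037510-72037759, Rom1 at chr19:8929357-8929606 and Prdm13 at chr4:21685964-21686213, all on the minus strand.
Aipl1: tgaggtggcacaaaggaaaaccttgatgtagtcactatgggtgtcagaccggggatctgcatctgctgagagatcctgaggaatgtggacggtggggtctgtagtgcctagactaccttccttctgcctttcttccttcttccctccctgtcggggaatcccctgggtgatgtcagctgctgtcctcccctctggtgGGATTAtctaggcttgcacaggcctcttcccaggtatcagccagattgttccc
Rom1: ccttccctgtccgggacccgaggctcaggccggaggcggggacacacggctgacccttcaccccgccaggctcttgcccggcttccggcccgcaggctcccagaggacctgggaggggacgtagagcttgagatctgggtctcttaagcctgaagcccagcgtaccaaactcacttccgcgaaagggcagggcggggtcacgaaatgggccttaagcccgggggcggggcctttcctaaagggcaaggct
Prdm13: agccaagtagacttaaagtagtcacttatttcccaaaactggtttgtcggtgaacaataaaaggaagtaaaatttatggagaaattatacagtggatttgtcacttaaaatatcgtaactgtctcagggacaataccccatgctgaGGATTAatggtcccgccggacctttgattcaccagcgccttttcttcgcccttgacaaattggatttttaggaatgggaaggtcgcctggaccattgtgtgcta
Aipl1, which fell, and Prdm13, which rose, each held the core, and Rom1, which fell, did not. Windows were found for 51 of the 72 genes called lower and 28 of the genes called higher. The core was in 10.8% of 74 windows of genes that fell, 8.11% of 37 windows of genes that rose and 6.25% of all 32851 windows. CAGATG or CATCTG, an E-box, was in 20.3%, 24.3% and 14.4% of these windows, and CAGCTG, another E-box, in 10.8%, 21.6% and 13%. Each motif was searched on both strands, and none of the 3 contains another.

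Genes of amacrine and horizontal cells held 5 of the calls among genes that rose. Nhlh2, a helix-loop-helix factor of young amacrine and ganglion cells, measured 36.4, 29.2 and 25.0 ppm with the empty vector and 74.1, 109 and 109 ppm with Nmnat2, 3.22 times higher by the ratio of means (1.65 ± 0.20, limma adjusted p = 0.0164). Prdm13, which promotes GABAergic and glycinergic amacrine cells, measured 57.4, 53.9 and 48.0 ppm against 94.8, 171 and 173 ppm (1.40 ± 0.26, limma adjusted p = 0.0498). Calb2, the calcium buffer calretinin, measured 47.3, 34.8 and 36.8 ppm against 66.3, 124 and 115 ppm (1.30 ± 0.24, limma adjusted p = 0.0488). In these 3 genes Nmnat2 library 1 was the lowest of its group and still above every empty vector library. Prox1, which marks horizontal and AII amacrine cells, rose by 0.91 ± 0.16 and Ebf3, a factor of amacrine and ganglion cells, by 1.30 ± 0.24 on the log2 scale. Of 24 amacrine and horizontal genes tested 5 were called higher and none lower. Their median was 0.85 and lay between 0.51 and 1.12 in every alternative. The count was 14 without the libraries numbered 1, 9 without Nmnat2 library 1 alone, and 1 without empty vector library 1 or Nmnat1 library 2 or 3. It was 0 without empty vector library 2 or 3 or Nmnat2 library 2 or 3. With all 9 libraries but no mean-variance trend in the limma fit, it was also 0. The list's summed level was 656, 651 and 627 ppm with the empty vector and 781, 1303 and 1232 ppm with Nmnat2.

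The other members of that list were not called. Pax6 had 82.9, 101 and 100 ppm against 130, 256 and 265 ppm and missed the threshold (1.12 ± 0.27, limma adjusted p = 0.114). Ptf1a, which commits progenitors to amacrine and horizontal fates, had 7.37, 7.06 and 6.07 ppm against 4.84, 29.5 and 31.7 ppm, with Nmnat2 library 1 below the empty vector libraries and the other 2 above (1.20 ± 0.59, limma adjusted p = 0.536). Gad2, for GABA synthesis, had 1.37 ± 0.37 (limma adjusted p = 0.165), whereas its paralog Gad1 had -0.40 ± 0.34 (0.783). Of 21 ganglion cell genes tested 1, Ebf3, was called higher and the median was 0.40. Without the libraries numbered 1 the count was 8. Isl1 (1.07 ± 0.46) and Tubb3 (0.54 ± 0.39) each had 1 low Nmnat2 library, library 1, and were not called over all libraries.

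Further genes that rose were in neither of these lists. Lhfp had the smallest adjusted p after Nmnat2, at 45.1, 40.6 and 39.8 ppm against 125, 134 and 117 ppm (1.56 ± 0.12, limma adjusted p = 0.00102). Ret, the receptor for GDNF-family ligands, neurturin among them, measured 13.0, 10.2 and 13.6 ppm against 34.0, 46.0 and 43.4 ppm (1.67 ± 0.16, limma adjusted p = 0.0054). Lhfp, Ret and Nmnat2 were the named genes called under every alternative computed. Igfbpl1, a relative of the insulin-like growth factor binding proteins, measured 4.47, 4.19 and 3.56 ppm against 12, 17.6 and 21.6 ppm (1.80 ± 0.27, limma adjusted p = 0.0253). Ptprt, a receptor tyrosine phosphatase, rose by 1.57, Gabra2, a GABA-A receptor subunit, by 1.48, Pcdh8, a protocadherin, by 1.44 and Myt1l, a factor that keeps neuronal identity, by 1.42 on the log2 scale. Six2, a homeobox factor, rose by 1.52, Klhl35 by 1.46 and Spsb4, a ubiquitin ligase adaptor, by 1.37. The glutamate receptor subunits Gria4 (1.33 ± 0.15) and Grik2 (1.01 ± 0.19) were called as well. The 5 most abundant in the Nmnat2 libraries, Nmnat2 aside, included Tubb2a, a tubulin of young neurons (148, 129 and 140 ppm against 228, 339 and 312 ppm), and Cd24a, a surface protein of young neurons (163, 168 and 161 ppm against 228, 294 and 317 ppm). Nsg1, an endosomal protein of neurons, rose by 1.15 on the log2 scale. In 32 of the 42 genes called higher, Nmnat2 library 1 was the lowest of its group. It was the highest in 23 of the 72 genes called lower, so another library was the highest in most of these. The same shares over all genes are not given, so the counts do not show library 1 to be weaker in both directions.

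**Figure D4:**
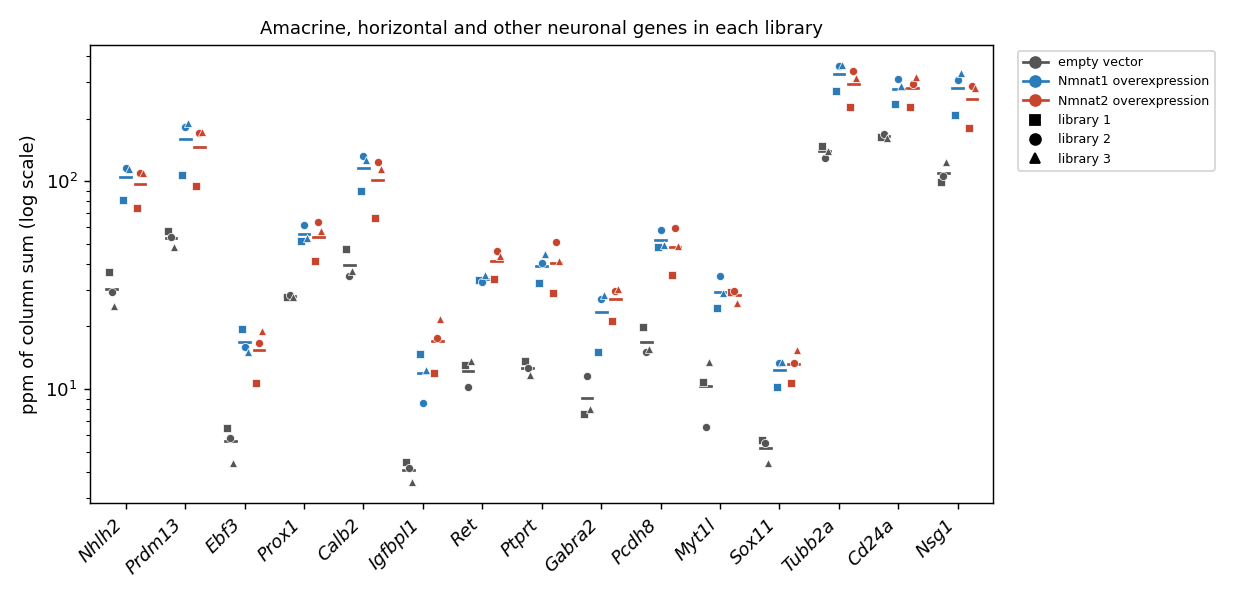
Level in ppm of column sum (log scale) of 15 amacrine, horizontal and other neuronal genes called higher, in each of the 9 libraries; colours mark groups, symbols library numbers and bars group means. In every gene the 3 Nmnat2 libraries lie above the 3 empty vector libraries, with library 1 (square) often the lowest of the 3.

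The genes of NAD metabolism lie nearest to the enzyme that the plasmid encodes. Of 20 genes for NAD synthesis and salvage tested only Nmnat2 was called, and the list's median was 0.06, as for all genes. Nadk2, the mitochondrial NAD kinase, measured 99.2, 101 and 98.5 ppm against 95.3, 77.0 and 75.1 ppm (-0.28 ± 0.11, limma adjusted p = 0.425). Nmrk1, a nicotinamide riboside kinase, had 0.24 ± 0.22 (limma adjusted p = 0.805). None of 21 NAD-consuming genes was called, and 3 of them had groups without overlap. Over all genes 8.6% were higher and 7.73% lower without overlap, so 3 of 21 does not set this list apart. Sirt3, the mitochondrial deacylase, came nearest, at 63.1, 69.2 and 77.1 ppm against 44.5, 52.8 and 46.9 ppm (-0.53 ± 0.12, limma adjusted p = 0.1; adjusted p = 0.0172 without the libraries numbered 1). Sarm1 had 33.6, 36.3 and 31.2 ppm against 22.2, 39.9 and 37.9 ppm, with overlap (-0.06 ± 0.20, limma adjusted p = 0.96). None of 26 genes for NMNAT2 turnover, palmitoylation and axon degeneration was called, with Dpysl2 (0.68 ± 0.15) and Mapk10 (1.39 ± 0.32) at the smallest p. Of 15 axon injury genes Sox11 was called higher (1.19 ± 0.21, limma adjusted p = 0.0482). That list's median was -0.18 over all libraries and 0.22 without those numbered 1.

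Glycolysis genes held 2 calls. Aldoa, aldolase A, measured 1074, 999 and 993 ppm with the empty vector and 657, 610 and 596 ppm with Nmnat2 (-0.72 ± 0.13, limma adjusted p = 0.0481). Gpi1, glucose-6-phosphate isomerase, measured 218, 219 and 213 ppm against 120, 135 and 134 ppm (-0.74 ± 0.12, limma adjusted p = 0.0356). Ldha, lactate dehydrogenase A, was the most abundant gene of the list, at 7062, 7079 and 7184 ppm against 5051, 4513 and 4375 ppm, and missed the threshold (-0.62 ± 0.13, limma adjusted p = 0.0805). The median of the 22 genes was only -0.11, since Pgk1 and Pgam1 among others stayed within -0.11 and -0.08. Of 44 nuclear respiratory chain genes Cox8a, a cytochrome oxidase subunit, was called lower (-0.55 ± 0.09), and the median was -0.15. None of 25 tricarboxylic acid cycle genes and none of 13 mitochondrially encoded mRNAs was called. Atp6v0b, of the vacuolar proton pump, fell by 0.57 on the log2 scale. None of 23 p53 targets and none of 21 apoptosis regulators was called, at medians of -0.15 and -0.12.

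Among markers of cells other than neurons no gene was called over all libraries, but the summed levels of astrocyte and erythroid markers did not overlap between the groups. Summed microglia and macrophage markers ran from 16.4 to 31.9 ppm with the empty vector and from 22.1 to 29.7 ppm with Nmnat2, endothelial and pericyte markers from 120 to 127 ppm and 113 to 166 ppm, and pigment epithelium and melanocyte markers from 86.0 to 109 ppm and 76.1 to 93.5 ppm. None of the 8, 13 and 9 genes tested in these lists was called. Fibroblast and matrix markers ran from 366 to 489 ppm and from 362 to 722 ppm, and lens markers from 34.4 to 45.5 ppm and 34.6 to 42.4 ppm, with no call among 13 and 8 genes. In libraries 2 and 3 alone, the endothelial sum was 120 and 120 ppm against 166 and 163 ppm and the fibroblast sum 486 and 489 ppm against 722 and 712 ppm. Without the libraries numbered 1, limma called Cldn5 (1.70) and Kdr (0.50) of the endothelial list and Col6a1 (0.99) and Sparc (0.58) of the fibroblast list higher, and 2 astrocyte genes higher and 2 lower. No marker of the microglia, endothelial, pigment, fibroblast and lens lists was at 0 in all 6 libraries. Astrocyte markers summed to 2470 to 2502 ppm and 1764 to 2038 ppm, mostly through Fabp7, which retinal progenitors also express and which was not called (-0.44 ± 0.10, limma adjusted p = 0.104). The median of the 9 astrocyte genes was 0.43, above 0, while their sum was lower. Erythroid markers summed to 3.41 to 7.19 ppm and 8.09 to 10.6 ppm, with Hbb-bt at 0 in all 6 libraries. Müller glia genes (27 tested) and progenitor genes (22 tested) had no call over all libraries, at medians of 0.13 and 0.05. Without the libraries numbered 1, 16 Müller genes were called higher and 1 lower, at a median of 0.33, and 6 progenitor genes higher. In that fit all 4 Y-linked genes were called lower, with Eif2s3y at -1.24 (limma adjusted p = 0.00136). The part of the Y-linked difference and of library 1 of the Nmnat2 group in the gene lists was not tested.

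**Figure D5:**
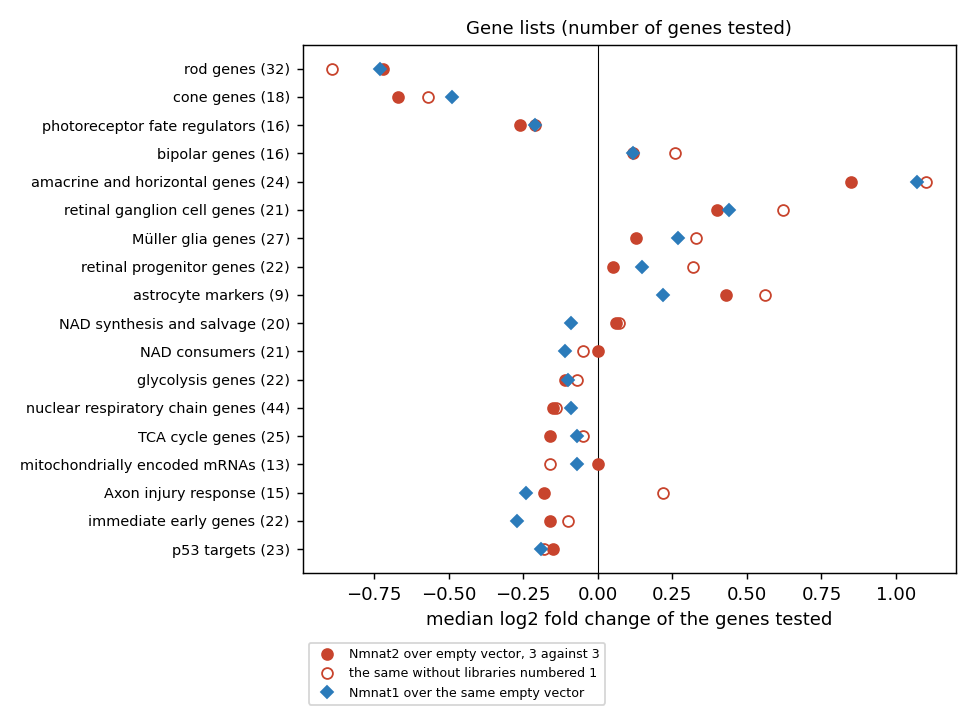
Median log2 fold change of 18 gene lists, with the number of genes tested in brackets, for Nmnat2 over empty vector with all 6 libraries (filled circles), without the libraries numbered 1 (open circles) and for Nmnat1 over the same empty vector libraries (diamonds). The rod and cone lists lie at -0.72 and -0.67 and the amacrine and horizontal list at 0.85, while the NAD lists lie near 0.

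The Nmnat1 libraries give the same measures for the nuclear enzyme, against the same 3 empty vector libraries, so these values are set side by side and are not independent. Against the empty vector 19 genes (0.0917%) were called higher and 6 (0.029%) lower with Nmnat1. Guca1a measured 47.5, 49.2 and 50.7 ppm there, beside 33.8, 43.5 and 57.5 ppm with Nmnat2, and Nhlh2 measured 81.4, 116 and 115 ppm beside 74.1, 109 and 109 ppm. The medians with Nmnat1 were -0.73 for rod, -0.49 for cone and 1.07 for amacrine and horizontal genes. The direct contrast of the plasmids, which does not use the empty vector libraries except for the shared spread, called 4 genes (0.0193%): Nmnat1, Nmnat2, Cyr61 and the predicted gene Gm6563. At an unadjusted p under 0.05 it held 924 of the 20725 genes, fewer than the share of 0.05 expected with no difference at all. The differences between plasmids were -0.16 ± 0.20 for Guca1a, -0.12 ± 0.21 for Rcvrn, -0.10 ± 0.20 for Nhlh2 and -0.05 ± 0.12 for Lhfp (log2, SE), with limma adjusted p of 0.953 to 0.970. Pde6h measured 6.27, 2.72 and 4.96 ppm with Nmnat1, above the 3 Nmnat2 libraries, at a difference of -1.39 ± 0.46 that was not called (limma adjusted p = 0.953). Without the libraries numbered 1, 51 of 17502 genes (0.291%) differed between the plasmids, Cwc22 and 3 Y-linked genes among them.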

How the data were processed

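Per the labels' protocols, total RNA of sorted EGFP-positive cells was made into cDNA with SMART-Seq v4 from 1 ng and into libraries with the Nextera DNA Flex kit. This chemistry does not mark strand, so reads of genes that overlap on opposite strands are not separable. The tools listed in the submitters' processing notes are Salmon 0.11.3 and sleuth 0.30.0, and the build is GRCm38.p6. The values the authors deposited are named TPM, but columns do not sum to a common total, and were handled here as a signal per gene, scaled for length, whose exact unit is unstated. In genes with 1 transcript, 81.1% to 85.1% of low values lay within 0.1 of whole reads (20% by chance), which gave relative depth. Reads of all other genes were not recovered, so count models were not applied.

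The last, incomplete line was dropped, leaving 34396 genes, of whose identifiers 99.9% were found in GENCODE M21, which gave coordinates. Columns were scaled to a sum of 1000000. A gene entered the fit when 3 or more of the 9 libraries reached 1 ppm. limma 3.58.1 (R 4.3.3) was run on log2(ppm + 1), with 3 groups, a mean-variance trend, two-sided tests and Benjamini-Hochberg adjustment. The fit was tested on simulated data with independent noise in each gene and library. That test does not cover deviations that a library shares across genes, such as those of the libraries numbered 1. Python 3.11.15 and matplotlib 3.10.9 drew the figures. Groups follow the labels, and libraries are called by group and number.

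Genes and lists were chosen with earlier results of these data known, so no list was tested as a set. Named genes were Nmnat1 to Nmnat3, the 12 highest and 12 lowest called fold changes whose higher mean reached 5 ppm, whose groups did not overlap and whose symbol is no predicted or clone name, 10 and 10 of those also called without the libraries numbered 1, the 5 most abundant per direction, and up to 4 members per described list by smallest p. Cwc22, Nrtn, Impdh1, Gria4 and Grik2, and list members beyond that number, were named after their values were seen. Alternatives covered pseudocount, filter, scaling, fit, block, weights and libraries.

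The knockdown table was not used here. Some genes are not reported here.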

Additional observations from a re-analysis of the deposited data

Results flagged for a closer look

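In 4 genes the effect of the Nmnat2 plasmid differed from that of the Nmnat1 plasmid by the direct contrast in limma. For Nmnat2 and Nmnat1 the differences of 11.81 and -8.74 (log2) are the plasmids themselves. Cyr61, a matricellular growth factor target gene, measured 17.3, 19.2 and 19.8 ppm with the empty vector, 12.8, 8.3 and 10.1 ppm with Nmnat1 and 25.7, 33.0 and 35.2 ppm with Nmnat2. The difference was 1.51 (limma adjusted p = 0.048), with Nmnat2 above and Nmnat1 below the empty vector in 3 of 3 libraries each. Gm6563, a predicted gene on chromosome 19, measured 54.3, 56.3 and 56.5 ppm with the empty vector, 60.6, 68.9 and 66.9 ppm with Nmnat1 and 32.4, 23.6 and 24.0 ppm with Nmnat2, a difference of -1.28 (limma adjusted p = 0.0145). Gm6563, a predicted gene, falls outside the rule for named genes, whereas Cyr61 is within it as a member of the Müller glia list. Both were singled out here after their values were seen.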

How the results depend on the processing

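The count of 114 called genes became 48 with no filter on low values, 181 with a filter of 5 ppm, 71 with median-of-ratios scaling, 5 without the mean-variance trend, 1251 with array weights, 1431 without the libraries numbered 1, 226 on protein-coding genes alone (chosen after seeing the data) and between 3 and 321 when each of the 9 libraries was left out in turn. With a replicate block it was 269, including all 114. Deviations of same-numbered libraries from their group means correlated at 0.027 to 0.461, not every pair above 0.1. The numbers were not taken to pair the libraries, and the block is given only here. As a hint from the data, Nmnat2 library 3 correlated better with empty vector library 2 (0.142) than with empty vector library 3 (0.027). The libraries numbered 1, however, correlated with each other at 0.211 to 0.461. With libraries 2 and 3 of the other groups they correlated at -0.378 to -0.063. The libraries numbered 1 thus shared a deviation across groups, which the main fit leaves in the spread. The direct contrast of the plasmids, 4 genes, gave 25 with array weights, 51 without the libraries numbered 1, 7 on protein-coding genes and 2 to 9 when each library was left out. The Nmnat1 difference of 0.99 passed the threshold with quantile normalization (0.97), 2 groups in the fit (0.99), the replicate block (0.99), array weights (1.06), without the libraries numbered 1 (1.10), on protein-coding genes (1.01) and without Nmnat1 library 1 (0.99); it was 0.92 to 1.05 when each library was left out in turn. The 33 other named genes followed were all called over all libraries. Of their 725 values under an alternative, 470 kept direction and side of the threshold, 255 kept direction only and 0 reversed. Since these genes were picked by their calls in the same data, a reversal was unlikely from the start. Named genes that were not called were not followed, and Sarm1, for example, went from -0.06 to 0.20 without the libraries numbered 1. Of 880 medians of 40 lists, 23 moved by more than the spread between libraries. The causes were not tested.

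With 3 libraries per group the permutation test cannot go below 0.1. Read totals per library are unknown here, and low genes rest on few reads.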

Other observations

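Immediate early genes, which neurons and glia switch on within minutes of a stimulus, included 1 gene called between the plasmids, Cyr61. Egr1 measured 63.0, 79.7 and 80.3 ppm with the empty vector, 46.3, 31.8 and 28.6 ppm with Nmnat1 and 86.7, 91.9 and 87.5 ppm with Nmnat2. Against the empty vector the Nmnat2 libraries were higher without overlap, and the difference was small (0.26 ± 0.17, limma adjusted p = 0.688). Against Nmnat1 the difference was 1.32 ± 0.17, short of the threshold (limma adjusted p = 0.0518), and 1.54 without the libraries numbered 1 (limma adjusted p = 3.41e-04). Fos measured 88.3, 48.5 and 48.4 ppm, 79.5, 37.1 and 36.9 ppm, and 177, 80.7 and 93.0 ppm in the same order of groups, with library 1 the highest of each group. Its difference between plasmids was 1.18 ± 0.37 (limma adjusted p = 0.953) over all libraries and 1.20 without those numbered 1 (limma adjusted p = 0.00214). Ier5 was called higher with Nmnat2 against the empty vector, at 47.8, 42.1 and 41.9 ppm against 73.2, 115 and 113 ppm (1.15 ± 0.17, limma adjusted p = 0.0258). Of 22 immediate early genes tested, Ier5 was the only one called with Nmnat2 against the empty vector. Cyr61 was the only one called between the plasmids, so Ier5 was not called as different from Nmnat1. With Nmnat1 against the empty vector 1 gene of this list was also called higher. The list's median was -0.16 with Nmnat2 against the empty vector. Egr1 and Fos were singled out after their values were seen.

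Genes for transport in the cilium, from which the photoreceptor outer segment grows, had a median of -0.24 over 37 genes, 32 of them below 0, with no call. Rpgrip1, of the connecting cilium, came nearest, at 201, 190 and 198 ppm against 142, 107 and 109 ppm (-0.72 ± 0.15, limma adjusted p = 0.0807). Among 31 synaptic vesicle and release genes, Amph, amphiphysin, was called higher (35.6, 29.5 and 33.9 ppm against 64.9, 63.3 and 56.3 ppm) and Slc17a7 lower. Without the libraries numbered 1, 5 were called higher and 8 lower.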
